A study of Mus musculus with 6 samples.

Results

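The 10 genes described here encode 4 ceramidases (Acer2, Acer3, Asah1 and Asah2), 4 ceramide synthases (Cers2, Cers4, Cers5 and Cers6) and 2 subunits of serine palmitoyltransferase (Sptlc1 and Sptlc2). They were taken by symbol from the 35976 rows of a table of normalized read counts, and all 10 were among the 14211 genes tested, those that reached 10 normalized counts in 2 or more libraries. The set was drawn up because Acer2 was among the genes that were highest, relative to control siRNA, in cells given Rbm43 siRNA. For that comparison the values below are therefore a description without a test.

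RNA was sequenced from primary mouse adipocytes of the genotype Ppargc1a(fl/fl), in which the gene for the coactivator PGC-1alpha carries loxP sites. Cells received an adenovirus and then an siRNA, and were fully differentiated before RNA was collected. The 6 libraries form 3 groups of 2, namely Cre virus with Rbm43 siRNA, GFP virus with Rbm43 siRNA, and GFP virus with control siRNA. All 3 groups carry the floxed allele, an adenovirus and an siRNA. Rbm43 encodes an RNA-binding protein, and GFP virus is the control for Cre virus. Cre recombinase was meant to remove the part of Ppargc1a between the loxP sites. A group with Cre virus and control siRNA is not among those analysed here, so the effect of Cre virus could be read only on top of Rbm43 siRNA. The submitters call the samples biological duplicates and do not say that they came from separate animals. The p-values thus measure the spread between these libraries, estimated for each gene mostly from other genes.

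Ceramide is the core lipid of all sphingolipids. Serine palmitoyltransferase starts its synthesis in the endoplasmic reticulum by joining serine to palmitoyl-CoA, and ceramide synthases later attach a fatty acyl chain whose length depends on the synthase. Ceramidases run the other way and cut ceramide into a free fatty acid and sphingosine, which can be phosphorylated to the signalling lipid sphingosine 1-phosphate. The ceramidases differ mainly in where they work: in lysosomes, at the plasma membrane, or in the Golgi and endoplasmic reticulum. In adipose tissue ceramides are studied for their links with insulin action and heat production.

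Libraries held 15775398 to 21961724 reads in genes, and 1 read was worth 0.878 to 1.217 normalized counts, so each member rested on 244 to 4833 reads in a library. Rbm43 had 53.8 and 32.5 normalized counts in the Cre virus Rbm43 siRNA libraries, 43.7 and 46.6 in the GFP virus Rbm43 siRNA libraries, and 185 and 224 in the GFP virus control siRNA libraries. The siRNA target was thus below its control level in all 4 libraries that received the siRNA. Ppargc1a had 463 and 469, 399 and 423, and 163 and 202 normalized counts in the same order of groups. It was not lower in the libraries labelled Cre virus than in the matching GFP virus libraries (log2 difference 0.18 ± 0.10 SE, adjusted p = 0.330, limma). Counts over the whole gene do not measure the excised part, so the label was taken as given, and every direction below refers to libraries labelled Cre virus.

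Markers of adipocytes were abundant in all libraries. Summed over 14 genes, they reached 273050 to 276347 normalized counts with Cre virus and Rbm43 siRNA, 327749 to 331442 with GFP virus and Rbm43 siRNA, and 224805 to 248025 with GFP virus and control siRNA. Markers of preadipocytes and fibroblasts (14 genes) summed to 917556 to 922381, 861232 to 892741, and 960621 to 971089 in these groups, and those of macrophages (14 genes) to 2069 to 2177, 1836 to 2175, and 2098 to 2130. Endothelial markers (8 genes) stayed at or below 363 in total. Mural and smooth muscle markers (8 genes) summed to 74693 to 77785, 62990 to 65679, and 56885 to 62263. A few genes weighed most in these sums. Fabp4 had 137846 and 125493 normalized counts in the control siRNA libraries and weighed most among adipocyte markers. Col1a1, Col1a2, Col3a1 and Postn weighed most among preadipocyte and fibroblast markers, and Acta2 and Tagln among mural markers.

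Acer2 encodes an alkaline ceramidase of the Golgi and lies on the plus strand at chr4:86874396-86934822 (mm10, GENCODE M21 annotation). It had 1726 and 1545 normalized counts with Cre virus and Rbm43 siRNA, 2225 and 2311 with GFP virus and Rbm43 siRNA, and 453 and 538 with GFP virus and control siRNA. All 4 Rbm43 siRNA libraries stood far above both control siRNA libraries, and both Cre virus libraries stood below both GFP virus libraries with the same siRNA. Among cells given GFP virus, the log2 difference of Rbm43 siRNA minus control siRNA was 2.20 ± 0.075 (SE), or 4.59-fold. Of the 11640 genes averaging 50 or more normalized counts, only 1, 4631405J19Rik, had a larger log2 difference there (2.80 ± 0.24). That gene is named because it outranked Acer2. Over all 14211 genes tested, Acer2 ranked 10 from the top. Its rank is only a description, because Acer2 was chosen on this comparison. Fewer cells of a type and less RNA per cell cannot be told apart in these bulk samples.

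Acer2 fell by 0.47 ± 0.075 on the log2 scale in Cre virus libraries relative to GFP virus libraries, both with Rbm43 siRNA (adjusted p = 4.17e-04, limma, 95% interval −0.63 to −0.32). It still rose 3.30-fold against GFP virus with control siRNA, a log2 difference of 1.72 ± 0.075 (adjusted p = 4.26e-11, 95% interval 1.57 to 1.88). Both comparisons share 2 libraries with the one for which Acer2 was chosen, so neither p is independent of that choice. Without the Cre virus replicate 2 the fall was 0.39 with an adjusted p of 0.0554, and in a fit without a mean-variance trend its adjusted p was 0.159. The rise against control siRNA passed in all 18 alternative settings. Adipocyte marker sums were highest in the same group as Acer2, with 8 of 14 markers higher and 3 lower with Rbm43 siRNA under GFP virus, and 8 of 14 lower and 0 higher with Cre virus. Brown fat markers (11 of 12 tested) summed to 8696 to 8925 with Cre virus and Rbm43 siRNA, 13060 to 13413 with GFP virus and Rbm43 siRNA, and 8294 to 8807 with GFP virus and control siRNA. Of the 11 tested, 8 rose and 0 fell with Rbm43 siRNA under GFP virus. With Cre virus against GFP virus, both with Rbm43 siRNA, 0 rose and 8 fell. Cre virus plus Rbm43 siRNA against GFP virus plus control siRNA gave 6 rises and 3 falls. Elovl3, at 4852 and 4567 normalized counts in the control siRNA libraries, weighed most in these sums, and Ppargc1a is on the list. Over all genes tested, 13.5% rose and 9.76% fell with Rbm43 siRNA under GFP virus. With Cre virus against GFP virus, both with Rbm43 siRNA, 2.62% rose and 5.88% fell. For Cre virus plus Rbm43 siRNA against GFP virus plus control siRNA the shares were 8.47% and 6.28%. The part of these marker lists in the Acer2 difference was not tested.

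**Figure D1:**
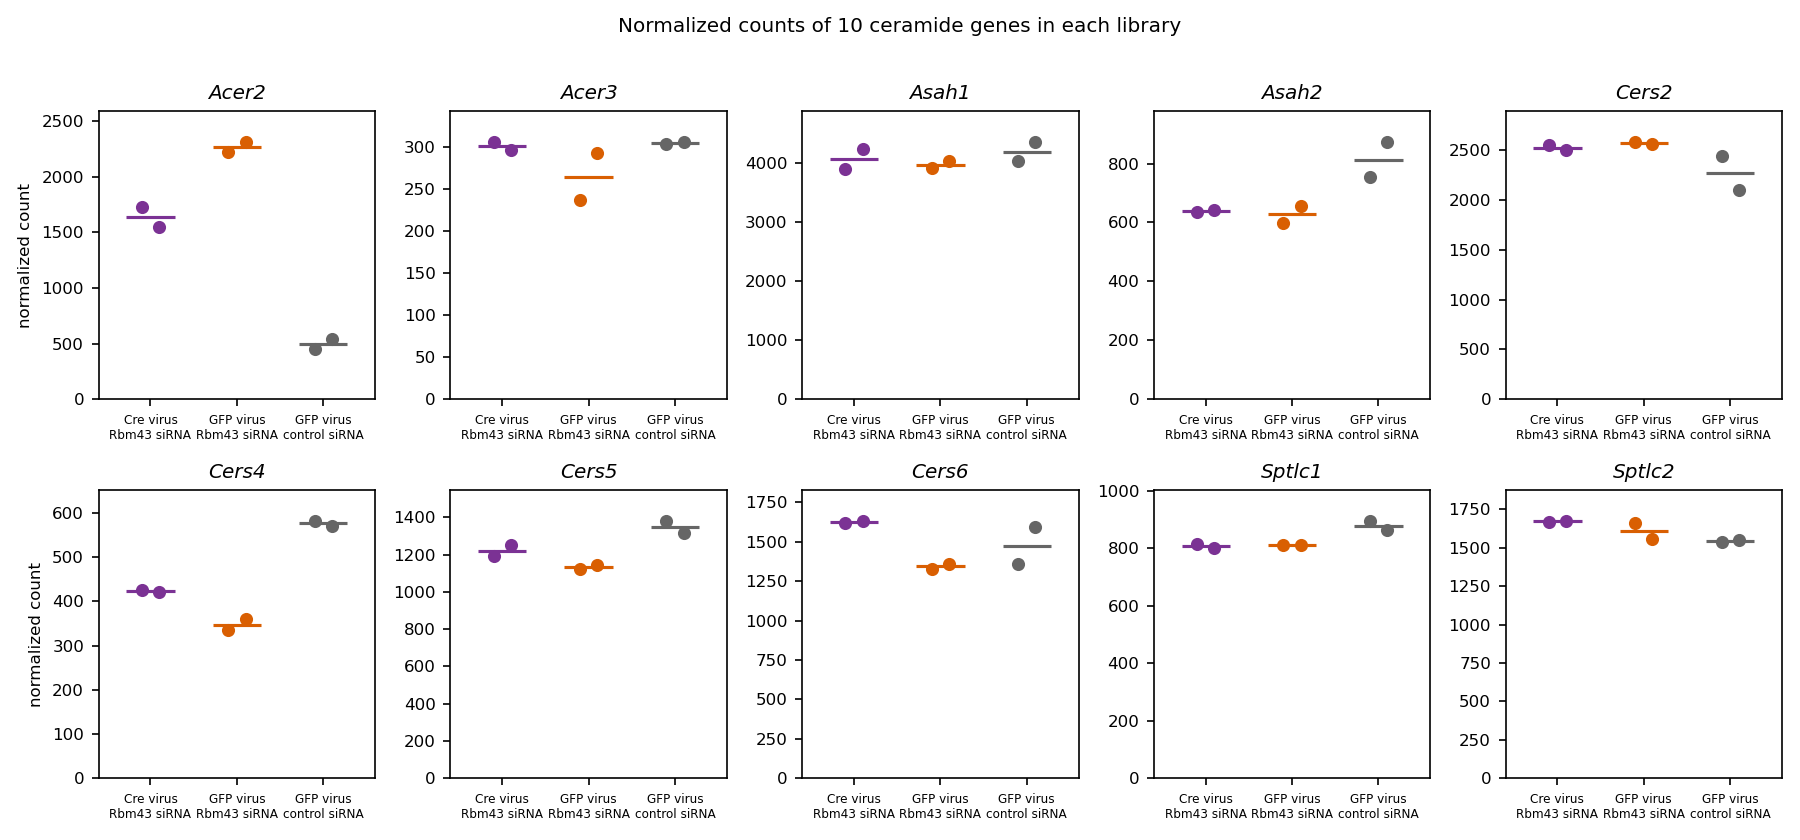
Normalized counts (vertical axes, each from 0) of the 10 genes in each library. Points are the 2 libraries of a group and lines are group means, with Cre virus Rbm43 siRNA left, GFP virus Rbm43 siRNA in the middle and GFP virus control siRNA right. Acer2 lies at 1545 or more in every Rbm43 siRNA library and at 538 or less in both control siRNA libraries, while Asah1 lies between 3899 and 4356 throughout.

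The 250 bases before the RefSeq start of Acer2, the member with the largest rise with Rbm43 siRNA relative to control siRNA under GFP virus, are shown 5′ to 3′ on the gene's strand (mm10, chr4:86874164-86874413, plus strand). GENCODE places the Acer2 start earlier, so the last 18 bases lie inside its annotated first exon. Capitals mark the GC box GGGCGG on either strand, whose reverse complement reads CCGCCC.
Acer2: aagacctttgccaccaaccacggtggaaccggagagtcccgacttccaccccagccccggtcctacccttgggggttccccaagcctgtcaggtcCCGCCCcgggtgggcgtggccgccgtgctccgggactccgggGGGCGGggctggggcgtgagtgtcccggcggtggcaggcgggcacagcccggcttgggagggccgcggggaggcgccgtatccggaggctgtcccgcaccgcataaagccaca
The Acer2 stretch is 73.2% G or C and holds 2 GC boxes, against a median of 52.4% G or C over all promoters. The window before the RefSeq start of Cers4, the member with the lowest difference in that comparison, is 63.2% G or C and holds 1 GC box, but it lies wholly inside the GENCODE span of that gene. GC boxes occur in 32.7% of 32851 promoters searched over the same length. Searches on both strands for CCAAT (in 33.8% of promoters), the E-box CACGTG (6.02%), the nuclear receptor element AGGTCA (14.0%), the longer element TCAAGGTCA, which overlaps that element (0.387%), and the TATA box TATAAA (12.4%) found none of these letters in either window. RefSeq promoters were matched for 9 of the 10 members. GC boxes were also found before a RefSeq start of Acer3 (3), Cers2 (2), Cers5 (2), Sptlc2 (2) and Sptlc1 (1). That Cers2 window, at 74.8% G or C, exceeded the Acer2 window. CCAAT was found before a RefSeq start of Cers2, Cers6, Sptlc1 and Sptlc2. An E-box was found in the windows before a RefSeq start of Cers2 and of Cers6. AGGTCA was found in those of Asah2 and of a second RefSeq start of Cers2. The Asah2 and Cers5 windows, both Cers2 windows and the Acer3 window with GC boxes lie inside the GENCODE spans of these genes. These matches describe letters in a window and do not show that a factor binds there.

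Asah1 encodes the acid ceramidase of lysosomes (chr8:41340197-41374773, minus strand) and had the highest counts of all members. It had 3899 and 4245 normalized counts with Cre virus and Rbm43 siRNA, 3913 and 4029.7 with GFP virus and Rbm43 siRNA, and 4035 and 4356 with GFP virus and control siRNA. The Cre virus libraries overlapped both other groups. Its log2 difference was 0.03 ± 0.054 for Cre virus against GFP virus with Rbm43 siRNA (adjusted p = 0.781, 95% interval −0.08 to 0.15). Against GFP virus with control siRNA it was −0.04 ± 0.054 (adjusted p = 0.663, 95% interval −0.16 to 0.07).

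Asah2 encodes the neutral ceramidase of the plasma membrane (chr19:31982597-32108211, minus strand). It had 636 and 644 normalized counts with Cre virus and Rbm43 siRNA, 599 and 657 with GFP virus and Rbm43 siRNA, and 754 and 873 with GFP virus and control siRNA. All 4 Rbm43 siRNA libraries lay below both control siRNA libraries, opposite to Acer2. Cre virus plus Rbm43 siRNA against GFP virus plus control siRNA gave a fall of 0.34 ± 0.078 on the log2 scale (adjusted p = 0.00506). The adjusted p became 0.0937 without Cre virus replicate 1, 0.0736 without Cre virus replicate 2 and 0.128 without a mean-variance trend. With Rbm43 siRNA in both groups, the log2 difference of Cre virus minus GFP virus was 0.03 ± 0.078 (adjusted p = 0.881, 95% interval −0.13 to 0.19), and the libraries overlapped.

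Acer3, the alkaline ceramidase of the endoplasmic reticulum and Golgi (chr7:98206389-98321208, minus strand), had the lowest counts of the ceramidases. Its values were 305 and 296 with Cre virus and Rbm43 siRNA, 237 and 292 with GFP virus and Rbm43 siRNA, and 304 and 306 with GFP virus and control siRNA. A single library, GFP virus Rbm43 siRNA replicate 1, lay apart at the low end, and the Cre virus libraries overlapped the control siRNA libraries. The log2 differences were 0.19 ± 0.10 for Cre virus against GFP virus with Rbm43 siRNA (adjusted p = 0.311) and −0.02 ± 0.10 for Cre virus plus Rbm43 siRNA against GFP virus plus control siRNA (adjusted p = 0.934). Acer1, the remaining alkaline ceramidase gene, was at 0 in every library.

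Levels of different genes were set side by side as normalized counts per kb of annotated exon. On this scale Asah1 led with 1201 ± 72.2 in Cre virus Rbm43 siRNA, 1172 ± 24.3 in GFP virus Rbm43 siRNA and 1238 ± 67.0 in GFP virus control siRNA libraries (SD, n = 2 each). Acer2 had 228 ± 17.8, 317 ± 8.48 and 69.2 ± 8.44 in these groups. In control siRNA libraries Acer2 and Asah2 (69.9 ± 7.20) were level within their spread, whereas with Rbm43 siRNA the Acer2 level exceeded the Asah2 level, which was 55.0 ± 0.461 with Cre virus and 54.0 ± 3.50 with GFP virus. Acer3 stood last, at 19.6 ± 0.433, 17.3 ± 2.54 and 19.9 ± 0.081. Per kb of coding length both orders differed: in control siRNA libraries the Acer2 level averaged 600.3 against 349 for Asah2, and Asah2 stood last in every group, at 275, 269 and 349 in the same group order, against 364, 320.2 and 369 for Acer3.

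As a share of the summed level of the 4 ceramidases, Acer2 made up 15.2 ± 1.74% with Cre virus and Rbm43 siRNA, 20.3 ± 0.039% with GFP virus and Rbm43 siRNA, and 4.94 ± 0.312% with GFP virus and control siRNA (SD, n = 2 each). Asah1 made up 79.8 ± 1.91%, 75.1 ± 0.312% and 88.6 ± 0.453%. The Acer2 share depends strongly on the length used, because coding sequence is a smaller part of the exons of Acer2 than of Asah1. Acer2 has 0.825 kb of coding sequence in 7.159 kb of exon, and Asah1 has 1.301 kb in 3.39 kb. Per coding length the Acer2 share was 34.5%, 43.0% and 13.2%, with Asah1 at 54.4%, 47.8% and 71.0%. The order of the groups was the same with either length, and Asah1 remained the most abundant ceramidase mRNA in each.

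**Figure D2:**
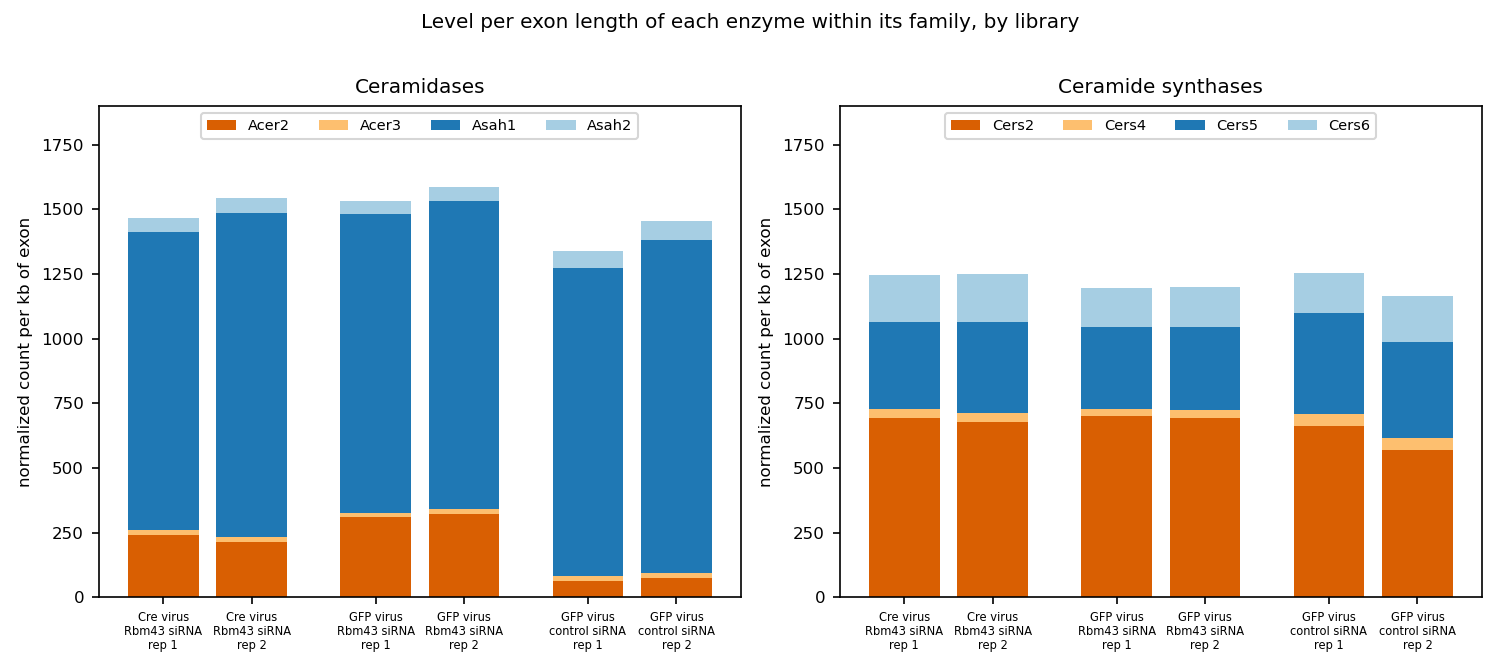
Level of each ceramidase (left) and ceramide synthase (right) in each of the 6 libraries, as stacked bars of normalized counts per kb of exon from 0. The Acer2 segment is 216 to 323 in the Rbm43 siRNA libraries and 63.2 to 75.1 in the control siRNA libraries, under a much larger Asah1 segment. The summed synthase level stays between 1167 and 1253.

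Among the ceramide synthases, Cers4 showed the widest spread between groups. Cers4 is one of the synthases that use long acyl chains (chr8:4493026-4531680, plus strand). It had 425 and 421 normalized counts with Cre virus and Rbm43 siRNA, 335 and 360.1 with GFP virus and Rbm43 siRNA, and 582 and 571 with GFP virus and control siRNA. The 3 groups did not overlap, with GFP virus and Rbm43 siRNA lowest and control siRNA highest, the reverse of the order for Acer2. Under GFP virus the log2 difference of Rbm43 siRNA minus control siRNA was −0.73 ± 0.079.

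Cers4 rose by 0.28 ± 0.079 on the log2 scale in Cre virus relative to GFP virus libraries with Rbm43 siRNA (adjusted p = 0.0307, limma). That call was lost when any library of these 2 groups was left out, with adjusted p between 0.0751 and 0.238, with no filter (0.0711), without a trend (0.151) and with DESeq2 on recovered reads (0.155). Against GFP virus with control siRNA it fell by 0.45 ± 0.079 in Cre virus libraries with Rbm43 siRNA (adjusted p = 6.03e-04), and this held in all 18 alternative settings. The 2 comparisons share the Cre virus libraries. On the opposite strand, Vmn2r-ps89 and Gm36956 overlap 7.2% and 1.7% of the exon length of Cers4. The kit keeps strand, but the strand setting of the counting is not given in the sources used here.

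Cers6 and Cers5 make ceramides with palmitoyl chains. Cers6 (chr2:68861441-69114282, plus strand) had 1619.95 and 1632 normalized counts with Cre virus and Rbm43 siRNA, 1330.3 and 1359 with GFP virus and Rbm43 siRNA, and 1358 and 1594 with GFP virus and control siRNA. Both Cre virus libraries lay above all 4 GFP virus libraries, and the control siRNA libraries lay far apart from each other. With Rbm43 siRNA in both groups, Cers6 rose by 0.27 ± 0.066 on the log2 scale in Cre virus libraries (adjusted p = 0.0123). The adjusted p was 0.0721 to 0.183 when any library of these groups was left out, 0.0931 with no filter and 0.249 without a trend. Against GFP virus with control siRNA the difference was 0.14 ± 0.066 (adjusted p = 0.166), and it became 0.26 with an adjusted p of 0.00171 without control siRNA replicate 2. Mural and smooth muscle marker sums were also highest in the Cre virus libraries, where 5 of 8 rose and 0 fell relative to GFP virus with Rbm43 siRNA. Over all genes tested, 2.62% rose and 5.88% fell in that comparison. The part of these markers in the Cers4 and Cers6 differences was not tested.

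Cers5 (chr15:99734881-99772885, minus strand) had 1191 and 1249.9 normalized counts with Cre virus and Rbm43 siRNA, 1122 and 1143 with GFP virus and Rbm43 siRNA, and 1380.4 and 1315 with GFP virus and control siRNA. The groups did not overlap and followed the order of Cers4. Neither tested difference passed the threshold, with 0.11 ± 0.059 for Cre virus against GFP virus under Rbm43 siRNA (adjusted p = 0.317, 95% interval −0.02 to 0.23) and −0.14 ± 0.059 for Cre virus plus Rbm43 siRNA against GFP virus plus control siRNA (adjusted p = 0.118, 95% interval −0.27 to −0.02).

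Cers2 makes ceramides with very long acyl chains and was the synthase with the highest counts (chr3:95314791-95323599, plus strand). It had 2548 and 2494 normalized counts with Cre virus and Rbm43 siRNA, 2576 and 2555 with GFP virus and Rbm43 siRNA, and 2435 and 2092 with GFP virus and control siRNA. All 4 Rbm43 siRNA libraries lay above both control siRNA libraries, which were themselves far apart. The log2 difference of Cre virus plus Rbm43 siRNA minus GFP virus plus control siRNA was 0.16 ± 0.061 (adjusted p = 0.0921), and 0.27 with an adjusted p of 3.06e-04 without control siRNA replicate 1. For Cre virus against GFP virus with Rbm43 siRNA it was −0.03 ± 0.061 (adjusted p = 0.867). Setdb1 and 6330562C20Rik, on the opposite strand, overlap 2.0% and 3.9% of its exon length.

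Per kb of exon, Cers2 led the synthases with 686 ± 10.3 with Cre virus and Rbm43 siRNA, 698 ± 4.09 with GFP virus and Rbm43 siRNA, and 616 ± 65.97 with GFP virus and control siRNA. Cers5 followed at 345 ± 11.7, 320 ± 4.21 and 380 ± 13.2, then Cers6 at 183 ± 0.956, 152 ± 2.29 and 166 ± 18.9, and Cers4 last at 34.5 ± 0.236, 28.3 ± 1.44 and 47.0 ± 0.614. Cers2 made up 55.0 ± 0.918%, 58.3 ± 0.529% and 50.8 ± 2.90% of the summed synthase level. Per coding length Cers6 passed Cers5, with 28.8% against 17.6% of the summed level in the Cre virus libraries, so their order depends on the length used. The summed level was 1248 ± 2.16, 1197 ± 3.86 and 1210 ± 60.9 per kb in the same groups, and the control siRNA libraries spanned both Rbm43 siRNA groups. Of the other synthase genes, Cers1 was at 0 in every library and Cers3 was below the minimum for testing.

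Serine palmitoyltransferase catalyses the step that commits serine to sphingolipids, with Sptlc1 and Sptlc2 as its paired large subunits. Sptlc1 (chr13:53332748-53377397, minus strand) had 814 and 799 normalized counts with Cre virus and Rbm43 siRNA, 809.9 and 811 with GFP virus and Rbm43 siRNA, and 895 and 862 with GFP virus and control siRNA. Sptlc2 (chr12:87305058-87388355, minus strand) had 1668 and 1673, 1658 and 1559, and 1535 and 1549 in these groups. The subunits thus lay on opposite sides of their control siRNA libraries in all 4 Rbm43 siRNA libraries, by small amounts. Against GFP virus with control siRNA, Cre virus with Rbm43 siRNA differed by −0.12 ± 0.063 for Sptlc1 (adjusted p = 0.226) and 0.12 ± 0.055 for Sptlc2 (adjusted p = 0.185) on the log2 scale. Cre virus against GFP virus with Rbm43 siRNA gave −0.01 ± 0.063 for Sptlc1 (adjusted p = 0.973) and 0.06 ± 0.055 for Sptlc2 (adjusted p = 0.631). The levels per kb of exon were 227 ± 3.002, 228 ± 0.148 and 247 ± 6.54 for Sptlc1, and 206 ± 0.463, 198 ± 8.62 and 190 ± 1.22 for Sptlc2. Per coding length Sptlc2 was the higher of the pair.

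Counted over the 10 members, Cre virus against GFP virus with Rbm43 siRNA gave 2 rises (Cers4 and Cers6), 1 fall (Acer2) and 7 members past no threshold. Over all genes tested, 8.50% passed in this comparison, 2.62% upward and 5.88% downward, and the median log2 difference was 0.05 for the members and 0.00 for all genes. The count of 3 became 1 with no filter, 1 without either GFP virus Rbm43 siRNA library or without Cre virus replicate 1, and 0 without Cre virus replicate 2, where 3 had an unadjusted p under 0.05. It was 3 with edgeR and 2 with DESeq2 on the recovered reads. Cre virus plus Rbm43 siRNA against GFP virus plus control siRNA gave 1 rise (Acer2) and 2 falls (Asah2 and Cers4). There 14.7% of all genes passed, 8.47% upward and 6.28% downward, with a median of −0.03 for the members and −0.00 for all genes. Among GFP virus cells, 2 of the 10 were past the threshold upward and 3 downward with Rbm43 siRNA relative to control siRNA, where 23.2% of all genes passed, 13.5% upward and 9.76% downward. This is given only as a description, because the set was chosen on that comparison. The 2 upward were Acer2 and Cers2 (0.18 ± 0.061). Cers2 passed in 7 of 18 alternative settings, and its difference was 0.075 without control siRNA replicate 2. Leaving out any library other than control siRNA replicate 1 lost the call. Cers2 also did not pass with no filter, upper-quartile or total scaling, only the groups compared, no trend or DESeq2. Without a trend, Asah2 and Cers5 did not pass either. Libraries of the groups compared did not overlap for 7, 8 and 9 of the 10 members in these 3 comparisons, against 53.7%, 54.6% and 58.5% of all genes. No statement about the set as a whole was drawn from these counts.

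**Figure D3:**
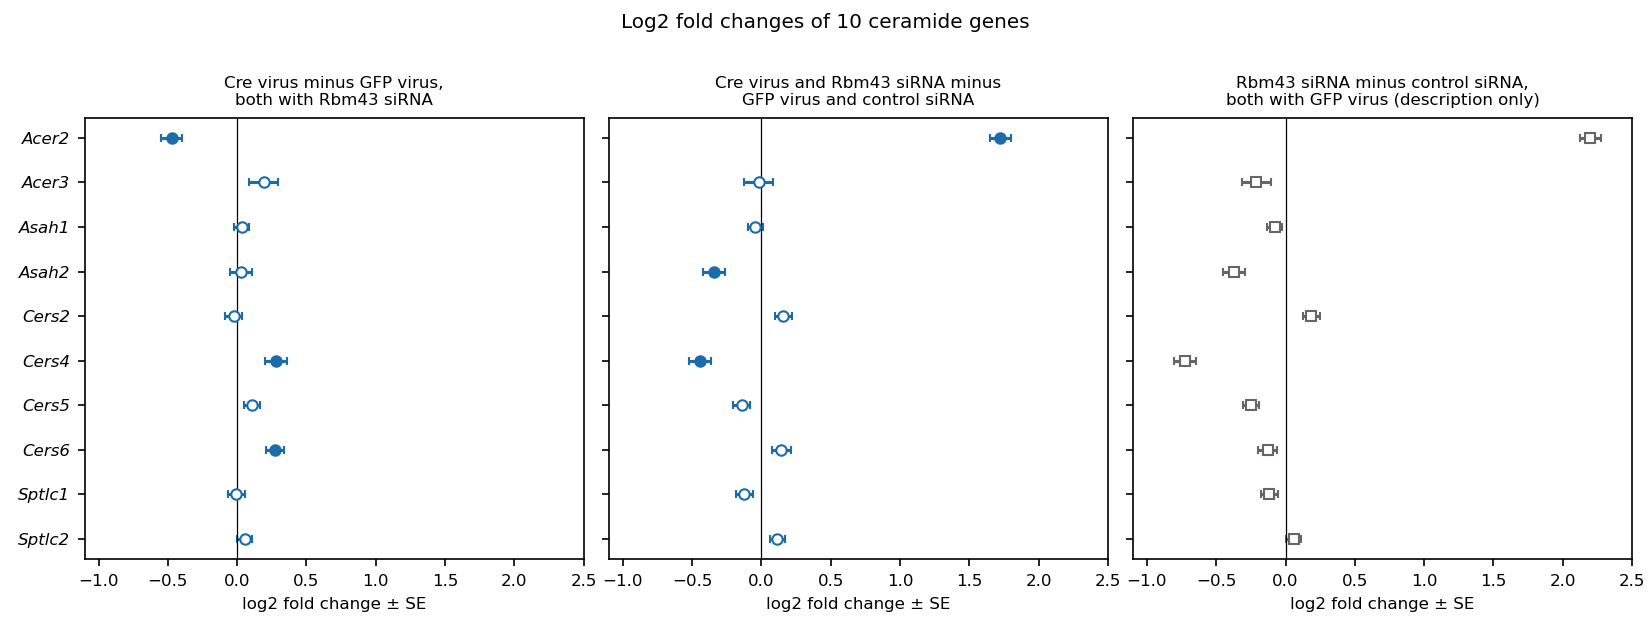
Log2 differences (horizontal axes, points with SE bars) of the 10 genes in the 3 comparisons, filled where the adjusted p was under 0.05. Squares on the right mark the comparison used to choose the set, shown without a test. Acer2 lies at −0.47, 1.72 and 2.20 from left to right, and Cers4 at 0.28, −0.45 and −0.73.

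The other genes of the pathway were described with 73 genes in 7 lists, 60 of which could be tested. They covered de novo synthesis, sphingomyelin, sphingosine and ceramide phosphates, glycosphingolipids, acyl chain elongation, and adiponectin with its receptors, besides the 3 untested paralogs. With Rbm43 siRNA, 2 rose and 6 fell in Cre virus against GFP virus libraries, where 2.62% of all tested genes rose and 5.88% fell. Against GFP virus with control siRNA, 5 rose and 8 fell in Cre virus libraries with Rbm43 siRNA, beside 8.47% and 6.28% of all genes. Under GFP virus, 7 rose and 12 fell with Rbm43 siRNA relative to control siRNA, beside 13.5% and 9.76% of all genes. The medians over the 60 genes were 0.03, −0.01 and −0.05 on the log2 scale in these comparisons. Where settings that lost a call are named below, the list is not always complete. In the Cre virus comparison 4, 2 and 3 of the genes passed without GFP virus Rbm43 siRNA replicate 2, Cre virus replicate 1 and Cre virus replicate 2, in place of 8.

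The list of de novo synthesis holds further subunits and regulators of serine palmitoyltransferase. Of 7 tested genes of de novo synthesis other than the members, 4 fell and 0 rose in Cre virus plus Rbm43 siRNA against GFP virus plus control siRNA. Sptlc3, an alternative large subunit, had 67.5 and 71.1 normalized counts with Cre virus and Rbm43 siRNA, 86.4 and 82.1 with GFP virus and Rbm43 siRNA, and 137 and 144 with GFP virus and control siRNA. All 4 Rbm43 siRNA libraries lay below the control siRNA libraries. Cre virus minus GFP virus, both with Rbm43 siRNA, was −0.28 ± 0.15 for Sptlc3 (adjusted p = 0.312, limma). In Cre virus plus Rbm43 siRNA against GFP virus plus control siRNA, Sptlc3 fell by 1.01 ± 0.15 on the log2 scale. Sptssa, a small activating subunit, fell by 0.53 ± 0.067, and the regulators Ormdl1 and Ormdl2, which inhibit the enzyme, fell by 0.72 ± 0.13 and 0.33 ± 0.10. The Ormdl2 call was lost without control siRNA replicate 1 or either Cre virus library. It was also lost with no filter (adjusted p = 0.0926, limma), with no trend (0.143) and in DESeq2 (0.168). Under GFP virus 1 of the 7 rose (Ormdl3, by 0.27 ± 0.049) and 4 fell with Rbm43 siRNA. There Sptssa fell by 0.42 ± 0.067, Ormdl1 fell by 0.76 ± 0.13 and Sptlc3 fell by 0.73 ± 0.15. The rise of Ormdl3 did not pass with no trend (adjusted p = 0.0610, limma). Ormdl3 fell by 0.18 ± 0.049 in Cre virus against GFP virus libraries with Rbm43 siRNA, a call lost without any library of these groups.

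Sphingomyelin synthases use ceramide as a substrate. Of 12 genes of sphingomyelin metabolism and ceramide transfer, 1 fell and 0 rose in Cre virus plus Rbm43 siRNA against GFP virus plus control siRNA. That gene, the sphingomyelin synthase Sgms2, had 327 and 314 normalized counts with Cre virus and Rbm43 siRNA, 326 and 300.4 with GFP virus and Rbm43 siRNA, and 475 and 459 with GFP virus and control siRNA. Its level was lower in all 4 Rbm43 siRNA libraries. Relative to GFP virus with control siRNA, Rbm43 siRNA libraries were lower by 0.54 ± 0.086 with Cre virus and 0.58 ± 0.086 with GFP virus. Samd8, a related synthase of ceramide phosphoethanolamine, fell by 0.25 ± 0.063 with Rbm43 siRNA under GFP virus, a call lost without GFP virus Rbm43 siRNA replicate 1 (adjusted p = 0.0707, limma) and in a fit with no mean-variance trend (0.0728). For Cre virus against GFP virus with Rbm43 siRNA, 0 of the 12 passed with limma, edgeR or DESeq2, and 2 had an unadjusted p under 0.05 in limma.

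Of 10 tested genes that handle sphingosine and ceramide phosphates, 1 rose in Cre virus plus Rbm43 siRNA against GFP virus plus control siRNA. It was Sgpl1, the lyase that degrades sphingosine 1-phosphate, at 0.24 ± 0.052 (adjusted p = 0.00349), and the call was lost without either Cre virus library. Under GFP virus 2 fell with Rbm43 siRNA, the receptor S1pr2 by 0.34 ± 0.080 and the phosphatase Sgpp1 by 0.19 ± 0.059. The S1pr2 call was lost without GFP virus Rbm43 siRNA replicate 1 (adjusted p = 0.0518, limma) and with no mean-variance trend (0.0959). The Sgpp1 call was lost without any 1 library other than control siRNA replicate 1 (adjusted p of 0.0515 to 0.119, limma), with no filter, with only the groups compared in the fit, with no trend and in DESeq2 (0.0652). For Cre virus against GFP virus with Rbm43 siRNA, 0 of these 10 genes passed with limma, edgeR or DESeq2, and 4 had an unadjusted p under 0.05 in limma. Glycosphingolipid genes (17 tested) gave 2 rises and 0 falls in Cre virus against GFP virus libraries with Rbm43 siRNA. They were Ugcg, which makes glucosylceramide, at 0.20 ± 0.047, and B4galt5, which makes lactosylceramide, at 0.23 ± 0.068, and both calls were lost without GFP virus Rbm43 siRNA replicate 2 or either Cre virus library. In Cre virus plus Rbm43 siRNA against GFP virus plus control siRNA, B4galt5 rose by 0.27 ± 0.068, a call lost without either Cre virus library. With GFP virus, Ugcg and B4galt6 fell by 0.19 ± 0.047 and 0.20 ± 0.067 with Rbm43 siRNA. The Ugcg call was lost without GFP virus Rbm43 siRNA replicate 2 (adjusted p = 0.0646, limma) and with no trend (0.105). The B4galt6 call was lost under the same settings as that of Sgpp1 (adjusted p of 0.0639 to 0.187 with a library left out, limma, and 0.173 in DESeq2).

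Acyl chain elongation supplies the fatty acyl-CoAs that ceramide synthases use. Of 11 tested genes, 0 rose and 3 fell in Cre virus against GFP virus libraries with Rbm43 siRNA. They were the elongases Elovl3 (fell by 0.41 ± 0.054) and Elovl6 (fell by 0.27 ± 0.064) and the reductase Hsd17b12 (fell by 0.28 ± 0.049). Elovl3 is also in the brown fat marker list. The Elovl6 call was lost without any library of these 2 groups, and that of Hsd17b12 without Cre virus replicate 1. None of the 3 passed in a fit without a mean-variance trend (adjusted p = 0.130 for Elovl3, limma). Against GFP virus with control siRNA, the dehydratase Hacd1 rose by 0.69 ± 0.076 and the elongase Elovl5 by 0.39 ± 0.048, while Hacd2 fell by 0.37 ± 0.064 and Elovl3 by 0.30 ± 0.054. The fall of Elovl3 there did not pass without Cre virus replicate 1. Without a trend, neither that fall nor that of Hacd2 passed. Under GFP virus 5 of the 11 rose and 2 fell with Rbm43 siRNA. Among them were Elovl5 (0.44 ± 0.048), Hacd1 (0.62 ± 0.076), Elovl6 (0.46 ± 0.064) and Hacd2 (fell by 0.30 ± 0.064). The Hacd2 call under GFP virus was lost without a trend (adjusted p = 0.0719, limma).

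The hormone adiponectin, whose gene is also in the adipocyte marker list, acts through receptors to which ceramidase activity has been ascribed. Its gene Adipoq had 18345 and 18218 normalized counts with Cre virus and Rbm43 siRNA, 22453 and 23077 with GFP virus and Rbm43 siRNA, and 22094 and 21331 with GFP virus and control siRNA. Both Cre virus libraries lay below all 4 GFP virus libraries. Adipoq fell by 0.32 ± 0.046 against GFP virus with Rbm43 siRNA and by 0.25 ± 0.046 against GFP virus with control siRNA. Neither call passed in a fit without a mean-variance trend (adjusted p = 0.126 and 0.0903, limma). The receptor gene Adipor2 had 13049 and 13396, 15688 and 15441, and 12133 and 11813 in these groups, so it followed the same order of groups as Acer2. Adipor2 fell by 0.24 ± 0.045 with Cre virus under Rbm43 siRNA and rose by 0.14 ± 0.045 against GFP virus with control siRNA. Both calls were lost without either Cre virus library and with no trend. The rise was also lost without control siRNA replicate 2, with no filter (adjusted p = 0.0947, limma) and with the replicate block (0.0569). For Adipor1 no comparison passed the threshold.

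**Figure D4:**
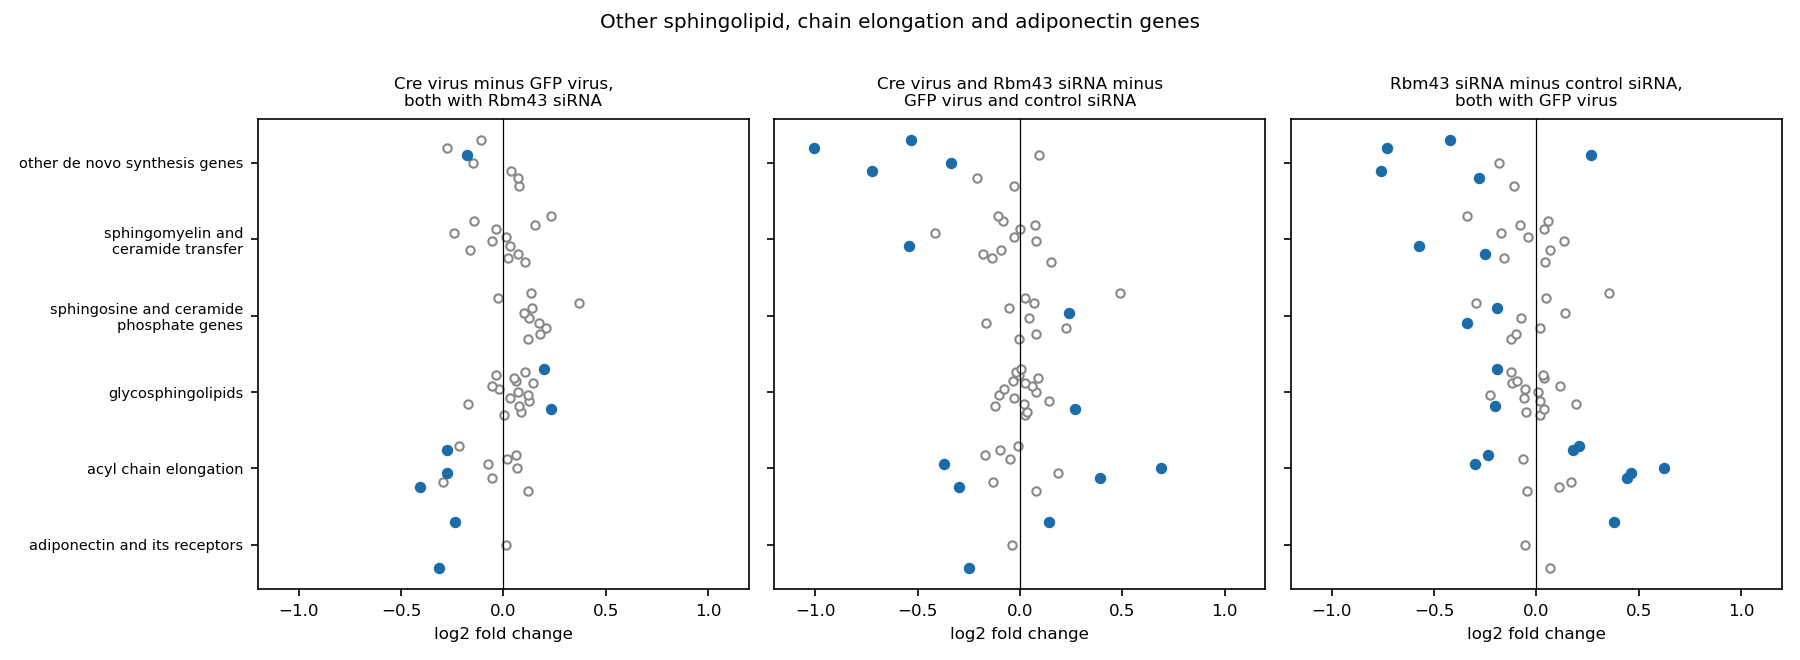
Log2 differences (horizontal axes) of the 60 other tested genes of the pathway in the 3 comparisons, by list; filled points have an adjusted p under 0.05 (limma). Open and filled points scatter on both sides of 0, and de novo synthesis genes reach the lowest values (Sptlc3 at −1.01 in the middle panel).

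The genes whose profile was nearest to that of Acer2 were found among 11639 other genes averaging 50 or more normalized counts, by the Euclidean distance between log2(normalized count + 1) values over the 6 libraries, each gene centred on its own mean. The 5 nearest were Gbp10 at a distance of 0.502, Thrsp at 0.506, Cds1 at 0.567, 6430571L13Rik at 0.824 and Dnajc22 at 0.834. The distance is in log2 units, and the libraries share 3 groups, so profiles with like group differences lie close. Gbp10, an interferon-inducible guanylate-binding protein gene, had 119 and 108 normalized counts with Cre virus and Rbm43 siRNA, 145 and 161 with GFP virus and Rbm43 siRNA, and 27.0 and 51.1 with GFP virus and control siRNA. Thrsp, a lipogenic gene, had 2285 and 2513, 3529 and 3542, and 971 and 849.6 in these groups. In both genes, as in Acer2, the GFP virus Rbm43 siRNA libraries were highest and the control siRNA libraries lowest, with no overlap. Cds1, a CDP-diacylglycerol synthase, had 64.6 and 65.0, 102 and 88.6, and 21.8 and 31.6. Dnajc22 had 66.6 and 43.9 normalized counts in the Cre virus libraries. No other member was near, the closest being Cers2 at a distance of 2.14 and rank 2171, and Cers4 lay at 3.05 and rank 11566.

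**Figure D5:**
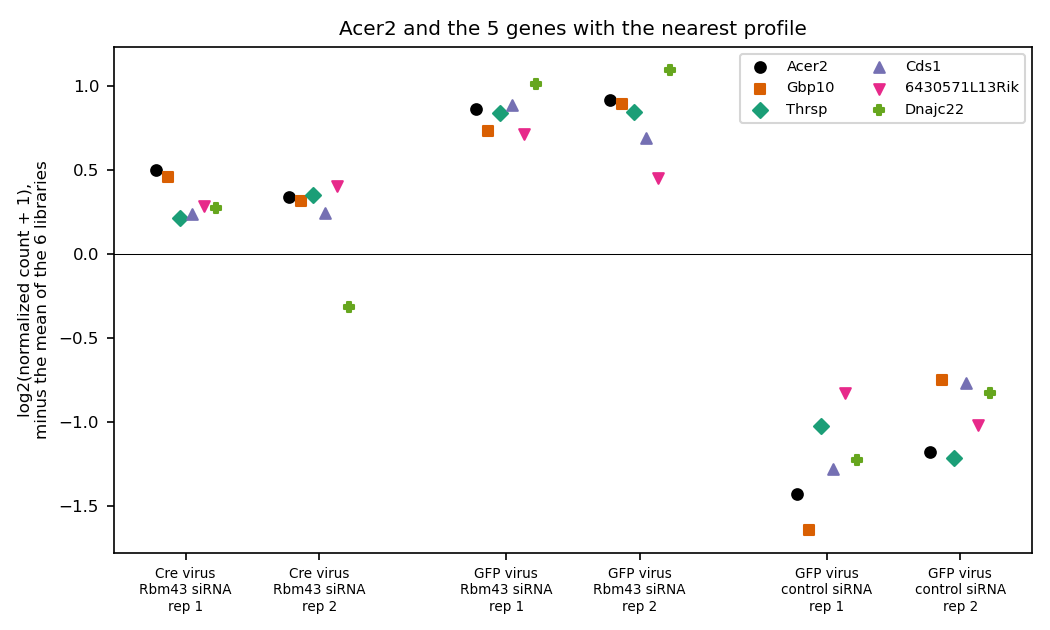
Profiles of Acer2 and its 5 nearest genes over the 6 libraries, as log2(normalized count + 1) minus each gene's mean (vertical axis). All 6 genes lie above 0 in the GFP virus Rbm43 siRNA libraries and below 0 in the control siRNA libraries, and Dnajc22 is below 0 in Cre virus replicate 2.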

How the data were processed

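The deposited table holds a normalized signal for each gene, which per the labels is normalized reads. Per the submitters' processing notes, the tools included STAR 2.7.8 and, besides it, fastp 0.23.2 and DESeq2 2.11.40.7, and the build was mm10. Which program counted reads, with what annotation and strand setting, is not given in the sources used here. All deposited values (100% in each library) were whole multiples of the value of 1 read, within 0.01 read, so reads could be recovered. On those reads edgeR 4.0.16 called 3263 genes for Rbm43 against control siRNA, 1336 for Cre against GFP virus, and 2111 with both changed.

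Values were taken as log2 of the normalized count after adding 1, which understates changes of low genes, and tested with limma 3.58.1 under R 4.3.3, its trend option on. All 6 libraries entered 1 fit. The limma fit draws each gene's variance toward a trend over all genes tested. SE, intervals and p-values thus rest mostly on the spread of other genes. Genes reaching 10 in 2 libraries were kept, and p-values were adjusted (Benjamini-Hochberg, 0.05) over all of them. The procedure was tested on simulated data. Exon lengths came from GENCODE M21.

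The members, gene lists and tests were chosen with earlier results of these data known. Named genes are the members, Rbm43, Ppargc1a, up to 4 passing genes with the smallest p from each list and comparison, and the 5 nearest to Acer2. Alternatives were pseudocounts 0.5 and 5, no filter, a minimum of 50, upper-quartile, total and TMM scaling, the replicate block, only the groups compared, no trend, edgeR, DESeq2 1.42.0, and each library left out. Coding length was added after seeing the data.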

Additional observations from a re-analysis of the deposited data

How the results depend on the processing

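With 2 libraries a group, leaving one out gives a lone library that is assumed to vary like the others, and depth limits small differences. The replicate numbers did not pair the libraries (correlations of deviations 0.019, −0.042 and −0.037). With the replicate block, 3412, 1304 and 2214 genes passed for Rbm43 siRNA against control siRNA, Cre against GFP virus, and both changed. Members passing stayed at 5, 3 and 3. For Rbm43 siRNA against control siRNA, here and below, member counts are only a description, because the set was chosen on that comparison.

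Over all genes, the counts of 3301, 1208 and 2096 became 1304, 0 and 433 without a mean-variance trend. In the comparison with 0, 2355 genes had an unadjusted p under 0.05, and edgeR called 1336. DESeq2 called 2045 in the first comparison and 1229 in the third, no filter gave 609 in the second and 1251 in the third, and only the 2 groups compared gave 2083 in the second. Leaving out a library gave 2115 to 3633, 312 to 2068, and 770 to 2654. Members passing without a trend were 2 in the first comparison and 0 in the second (3 unadjusted), and 1 in the second with no filter; leaving out a library gave 4 to 6, 0 to 3, and 2 to 4. Of the 60 other genes, 19, 8 and 13 became 8, 0 (12 unadjusted) and 6 without a trend, and 12 to 23, 2 to 11, and 8 to 19 with a library left out. The cause was not tested.

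Differences near 0 changed sign. For Cre against GFP virus, Sptlc1 was 0.005776 with upper-quartile and 0.01887 with total scaling. With a library left out, it spanned −0.01959 to 0.007367, Asah1 −0.02655 to 0.09621, Asah2 −0.03704 to 0.09507 and Rbm43 −0.4621 to 0.2489. With both changed, Acer3 spanned −0.04135 to 0.003575 and Asah1 −0.1049 to 0.01789. None of these was called. Of the other values of single genes under alternatives, 1174 kept direction and side of the threshold, 109 lost and 4 gained the call, and 30 shares moved with coding length.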
